A study of Mus musculus with 1699 samples.

Results

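The Gad2-high neurons of the perinatal mouse ventral midbrain were 69 single cells, chosen by their own mRNA levels from heterozygous Pitx3eGFP/wt animals of embryonic day 18.5 (E18.5), postnatal day 1 (P1) and postnatal day 7 (P7). A cell was taken where its reads over all genes summed to more than 100000, its Gad2 level was over an RPKM of 150 (reads scaled to transcript length and to the cell's mapped reads) and its Nxph4 level was 150 RPKM or less. They made up 69 of the 695 heterozygous cells of these stages that passed the read limit, out of 702 sorted cells and 1699 cells in the whole series. Heterozygous cells of E13.5, E15.5 and P90 and homozygous Pitx3eGFP/eGFP cells of E13.5 and P1 were also described, apart from these. In the heterozygous animals, eGFP sits in 1 allele of Pitx3, a transcription factor gene of midbrain dopamine neurons. Every heterozygous cell here thus had 1 working Pitx3 copy and was sorted through a GFP gate. Cells outside that gate were not sampled. The gate did not keep out every cell without eGFP expression. The study later removed sorted cells that clustered with such cells, which were high in Olig1, a step not repeated here. Each cell was 1 Smart-seq2 library from dissected ventral midbrain, and several animals of both sexes, which the labels do not name, contributed to each stage. A stage is therefore 1 sample, cells are not replicates of it, and no test of a difference between groups was made. All intervals are 95% intervals that cover counting error only.

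GABA is made from glutamate by the glutamate decarboxylases encoded by Gad1 and Gad2, and is loaded into synaptic vesicles by the transporter encoded by Slc32a1 (VGAT). Glutamate is loaded by the transporter encoded by Slc17a6 (VGLUT2), while dopamine is made by the enzymes encoded by Th and Ddc, loaded by the transporter encoded by Slc18a2 (VMAT2) and taken up again by the transporter encoded by Slc6a3 (Dat). Neurons of the ventral tegmental area, the medial part of this region, are known to hold these sets in mixtures, and Gad1 and Gad2 are commonly found together in GABA neurons of the forebrain.

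The genes that the account turns on are Gad2, used by the rule, and Wnt7b and Crhbp, both found more often in these cells than in the others, Crhbp mainly at E18.5 and P1. The study placed probes for in situ detection on each of them, and 1 coding target of each is printed 5′ to 3′, in lower case, so that the transcripts in question can be located in mm10. The Gad2 target lies in exon 16 of 16 at chr2:22690297-22690336 on the plus strand, that of Wnt7b in exon 4 of 4 at chr15:85537450-85537489 on the minus strand, and that of Crhbp in exon 3 of 7 at chr13:95443776-95443815 on the minus strand.
Gad2: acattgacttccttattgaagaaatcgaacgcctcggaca
Wnt7b: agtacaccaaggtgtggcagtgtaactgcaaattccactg
Crhbp: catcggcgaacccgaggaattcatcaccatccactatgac

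A further sequence is needed to read the VGAT values, because Slc32a1 has a neighbour that starts just beside it and runs the other way. The noncoding RNA gene Gm14204 lies on the minus strand at chr2:158595472-158610723 and Slc32a1 on the plus strand at chr2:158610767-158615748. The region chr2:158610667-158610766 of GRCm38.p6 (mm10), on the plus strand, is shown with the 43 bases between the starts of both genes in capitals. The library kit did not mark strand, so a read in this region cannot be assigned to a strand, although the annotated transcripts do not overlap.
Slc32a1 upstream region: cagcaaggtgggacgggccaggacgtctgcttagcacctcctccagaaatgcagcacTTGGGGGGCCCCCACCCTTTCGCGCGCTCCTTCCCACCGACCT

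The share of Gad2-high cells was 13.3% at E18.5 (25 cells, exact binomial interval 8.79 to 19%), 10.3% at P1 (33 cells, 7.23 to 14.2%) and 5.85% at P7 (11 cells, 2.96 to 10.2%). The intervals of neighbouring stages overlapped. The fraction of cells with markers of other types grew over the same stages: at least 3 of 9 oligodendrocyte-lineage markers were over an RPKM of 10 in 2, 32 and 50 cells of E18.5, P1 and P7. The 32 cells of P1 were all from the numbered wells without spike-in RNA, against 0 of 94 on the P1 plate with it. All cells of E18.5 came from plates with spike-in RNA and all of P7 from numbered wells without it. Stage and batch cannot be told apart in this rise. Among cells with at least 5 of 10 pan-neuronal markers over 10, fewer than 3 oligodendrocyte markers and fewer than 5 of 7 astrocyte markers (neuron-marked cells, a limit added after the values were seen), the Gad2-high share was 12% (22 cells), 12.9% (33 cells) and 11.5% (9 of 78 cells). Within E18.5 the 2 plates held 10 of 93 (10.8%) and 15 of 95 (15.8%), and within P1 the plate with spike-in RNA held 11 of 94 (11.7%) and the numbered wells without it 22 cells (9.78%).

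The values that chose the cells are given as a description only. Gad2 ran from 167.2 through a median of 356.6 to 717 RPKM at E18.5, from 150.3 through 334.2 to 1063 RPKM at P1 and from 157.1 through 327.5 to 958 RPKM at P7. The median cell held 1391, 1843 and 1802 Gad2 reads at the 3 stages. The 3 cells just inside the limit had 150.3, 155.9 and 157.1 RPKM, and the 3 just outside 148.5, 130.2 and 129.9 RPKM. Beside the 69, 7 cells were over 150 for both Gad2 and Nxph4, 36 had Gad2 between 10 and 150, and 583 had 10 RPKM or less. Nxph4, which encodes a secreted neurexophilin, was at or under 10 RPKM in 56 of the 69.

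The 69 cells had between 318664 and 4893625 reads each, with stage medians of 1313180, 1610150 and 1885120. They were compared with the 543 other heterozygous cells of the same stages (29.7, 46.8 and 23.6% of them from E18.5, P1 and P7) that had fewer than 3 oligodendrocyte markers over 10, whose median reads were 1082420, 1626500 and 2245410. The 543 include the 7 cells over 150 for both Gad2 and Nxph4. The label "neuron" was checked against the markers: at least 5 of the 10 pan-neuronal genes (Snap25, Stmn2, Map2 and others) were over 10 in 67 of the 69 cells, and the median cell had 8 at each stage. Of the 69, 3 cells had 5 or more astrocyte markers, 1 had 3 or more oligodendrocyte markers, and 66 had no marker of microglia or vessels over 10. At E18.5, 1 Gad2-high cell had fewer than 5 neuronal markers and 2 had 5 or more astrocyte markers, against 0 comparison cells for both. At P1 and P7 the comparison cells were less uniform: 25 and 55 of them had fewer than 5 neuronal markers, and 24 and 49 had 5 or more astrocyte markers. On the P1 plate with spike-in RNA, 0 comparison cells were of either kind. The part of such cells in the results was not tested beyond the values against neuron-marked cells. For this reason P7 shares are also given for the 69 neuron-marked comparison cells of that stage where it matters.

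The GABA genes beyond Gad2 were not present as a set. Gad1, which encodes the second glutamate decarboxylase, was over 10 RPKM in 1 of the 69 Gad2-high cells (1.45%, 0.0367 to 7.81%), a P7 cell with 147.2 RPKM. It was detected in 0 of 25 cells at E18.5, which allows a share of up to 12%, and in 0 of 33 at P1, which allows up to 9.09%. In the comparison cells, Gad1 was over 10 in 32 of 543 (5.89%). The mean difference in share over stages was -2.45 points (-6.05 to 8.73), and -5.61 points (-8.54 to 3.63) between neuron-marked cells of E18.5 and P1. Both intervals span 0. Summed over all 69 cells, 130312 reads were of Gad2 and 603 of Gad1, of which 599 came from that P7 cell. It had 10 neuronal and 4 astrocyte markers over 10.

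Slc32a1 was present at a low level in a part of the cells. Its RPKM had a median of 4.74 and a maximum of 28.6 at E18.5, a median of 4.67 and a maximum of 66.6 at P1, and a median of 2.07 and a maximum of 50.5 at P7. It was over 10 in 4 of 25 (16%), 11 of 33 (33.3%) and 4 of 11 (36.4%) cells, against 0 (up to 1.86%), 7 (2.76%) and 4 (3.12%) comparison cells. The mean difference over stages was 26.6 percentage points (17.4 to 39.3). At a lower limit of 1 RPKM, 50 of 69 cells (72.5%) held Slc32a1 and 39 of 543 comparison cells did (7.18%). With every cell thinned to 100000 reads, the shares over 10 were 39.1 and 2.39%. Of the 7 genes for GABA synthesis, release and uptake that were compared, Slc32a1 was higher past 2-fold and 0 were lower, with a median log2 ratio of -0.24. Gad1 had log2 ratios of -2.44 at E18.5 and -3.24 at P1 and of 0.89 at P7, where 1 cell held 147.2 RPKM, and it was lower past 2-fold between neuron-marked cells of E18.5 and P1. Here past 2-fold means that the log2 ratio of the mean levels was beyond 1 in the same direction at every stage, a state met upwards by 0.552% (84) of the 15230 entries with a mean level of at least 1 RPKM and downwards by 2.15%. The median log2 ratio of all these entries was -0.16. Between neuron-marked cells only E18.5 and P1 had enough Gad2-high cells, so an entry had to pass at 2 stages. There 0.994% of 14581 entries were higher and 4.02% lower past 2-fold.

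Gm14204, the neighbour of Slc32a1, was the more abundant of the pair. Its mean level in the Gad2-high cells was 135.8, 93 and 59.5 RPKM at E18.5, P1 and P7, against 4.12, 6.34 and 4.73 RPKM in the comparison cells. It was over 10 in 47 of 69 (68.1%, 55.8 to 78.8%) against 25 of 543 (4.60%, 3 to 6.72%). Both genes were over 10 in 13 cells, Slc32a1 without Gm14204 in 6, Gm14204 without Slc32a1 in 34 and neither in 16.

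The Gad2-high cells mostly held the mRNA for the vesicular glutamate transporter. Slc17a6 ran from 0.364 through a median of 62.3 to 174.3 RPKM at E18.5, from 0 through 116.2 to 334.5 RPKM at P1 and from 0 through 87.4 to 192.6 RPKM at P7. It was over 10 in 84, 97 and 81.8% of the cells, against 59.6, 57.5 and 35.2% of the comparison cells and 59.4% of the neuron-marked comparison cells of P7. The mean difference over stages was 36.8 points (23.8 to 43.7), while the mean levels of both groups lay within 2-fold of each other at each stage. Of the 5 genes for glutamate release that were compared, 0 were past 2-fold in either direction. Slc17a7 (VGLUT1) was over 10 in none of the 69 and Slc17a8 (VGLUT3) in 2. Joined by cell, Slc32a1 and Slc17a6 were both over 10 in 18 of the 69 (26.1%, 16.3 to 38.1%), Slc17a6 without Slc32a1 in 44 (63.8%), Slc32a1 without Slc17a6 in 1 and neither in 6 (8.70%). Among cells with Slc32a1 over 10, all but 1 thus also had Slc17a6 over 10.

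**Figure D1:**
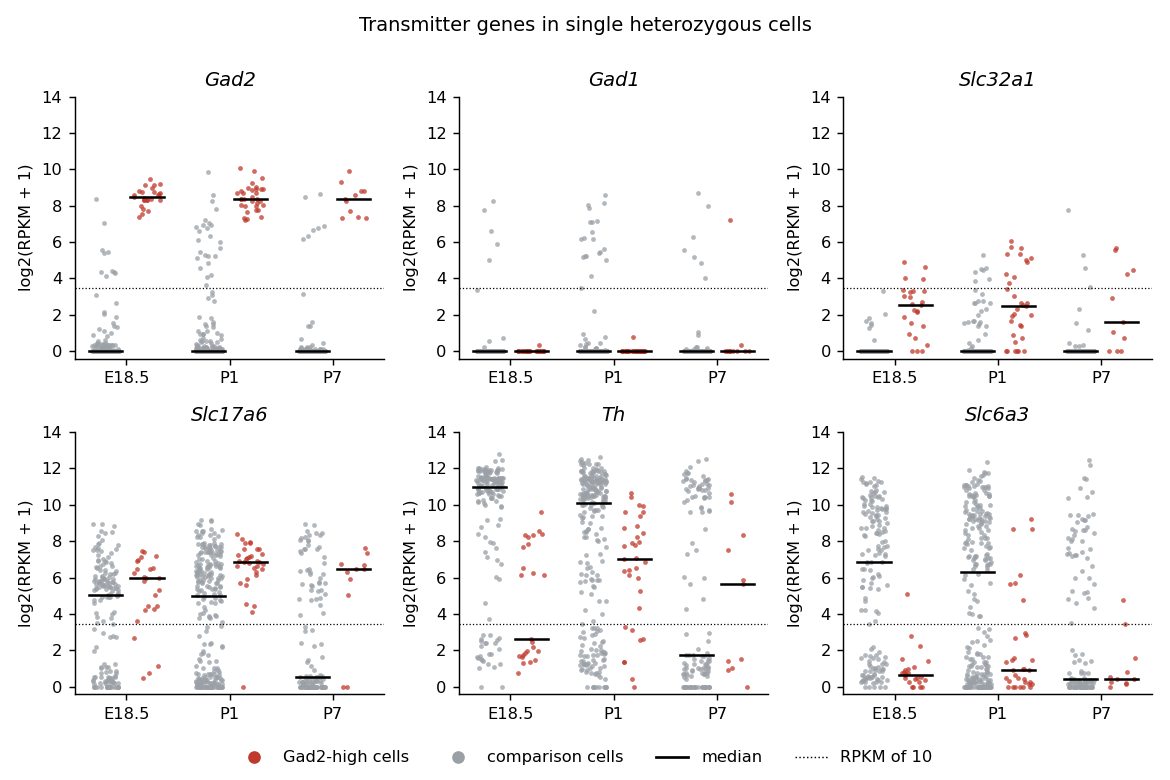
Level of 6 transmitter genes in each cell as log2(RPKM + 1), by stage, in Gad2-high cells (red) and the comparison cells (grey), with bars at the medians and a dotted line at an RPKM of 10. Gad2 set the groups and its panel is a description; Gad1 lies at the bottom in all but 1 red cell, Slc17a6 is over 10 in 62 of 69 of them, and Th and Slc6a3 reach down to 0 or near it.

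Dopamine genes were divided. Th, encoding tyrosine hydroxylase, had a median of 5.06 RPKM at E18.5 (lowest 0.712, highest 768), 128.1 RPKM at P1 (0 to 1609) and 49.2 RPKM at P7 (0 to 1552). The highest values in the comparison cells were 7179, 6333 and 5906 RPKM, so the upper range of the Gad2-high cells lay well below theirs. Their mean Th level was lower by 3.93, 2.12 and 1.45 on the log2(mean RPKM + 1) scale, which understates the change of low genes. By share the picture was less even: Th was over 10 in 48, 75.8 and 54.5% of Gad2-high cells against 84.5, 73.2 and 43.8% of comparison cells, and against 76.8% of the neuron-marked comparison cells of P7. The mean difference in share over stages was -7.72 points (-20.3 to 3.83), an interval that spans 0. It was -20.6 points (-33.2 to -8.86) against comparison cells with 5 or more neuronal markers, -18.4 (-32 to -5.85) with Gad2 over 300, a limit that leaves too few P7 cells for that stage to enter, and -17 (-29.7 to -5.28) without P7, all with intervals below 0, and 2.70 points (-9.55 to 9.68) at an RPKM limit of 1.

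Slc6a3, encoding the dopamine transporter Dat, was the lower of both. It was over 10 in 1, 7 and 2 Gad2-high cells (4, 21.2 and 18.2%) against 65.2, 55.5 and 38.3% of comparison cells, a mean difference of -38.5 points (-45.6 to -25.4). Its mean level was 2.19, 49.6 and 3.71 RPKM against 500.3, 497 and 256.9 RPKM. Only 3 Gad2-high cells, all of P1, were over 150 RPKM.

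The remaining steps of the dopamine pathway were held by most cells. Ddc, the decarboxylase that follows tyrosine hydroxylase, was over 10 in 84, 75.8 and 63.6% against 88.2, 77.6 and 46.1% of comparison cells. Slc18a2 was over 10 in 84, 93.9 and 72.7% against 82.6, 68.5 and 45.3%. Mean levels at E18.5 were lower, at 130.7 against 674.9 RPKM for Ddc and 133.9 against 293.8 RPKM for Slc18a2. At P1 and P7 the log2 ratios were -0.65 and 0.35 for Ddc and -0.23 and 0.43 for Slc18a2. Between neuron-marked cells of P7 they were -0.17 for Ddc and -0.20 for Slc18a2, so the sign at P7 depended on the comparison cells used. Ddc was over 10 in 66.7% of the neuron-marked Gad2-high cells of P7 and 73.9% of the neuron-marked comparison cells. For Slc18a2 these shares were 77.8 and 76.8%. All 4 genes were over 10 in 8 cells, Th, Ddc and Slc18a2 without Slc6a3 in 23, and none of the 4 in 3. Of the 11 dopamine genes compared, 0 were higher and 5 lower past 2-fold: Th, Slc6a3, Slc10a4 (a vesicular carrier of the bile acid transporter family), Dlk1 (a Delta-like membrane protein) and Aldh1a1 (a retinaldehyde dehydrogenase). Aldh1a1 had medians of 1.92, 2.36 and 1.29 RPKM in the Gad2-high cells and single cells of up to 376.6, 5366 and 1227 RPKM, so its mean levels rested on few cells. It was over 10 in 20, 24.2 and 27.3% against 40.4, 44.5 and 46.9%, and against 31.9% of the neuron-marked comparison cells of P7. The median log2 ratio over the dopamine genes was -2.23.

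Several transcription factors of the midbrain dopamine lineage were detected in most of these cells. Nr4a2, an orphan nuclear receptor needed for dopamine neurons, was over 10 in 67 of 69 Gad2-high cells, and Foxp2 in 64. Lmx1a, a homeodomain factor of floor plate progenitors, was over 10 in 54, the forkhead factor genes Foxa2 and Foxa1 in 55 and 46, and En1 in 50. Others were found in fewer cells: the homeodomain factor genes Otx2 in 23, Lmx1b in 17 and En2 in 7 of the 69. Of the 11 factors of the list, 0 were higher and 1 lower past 2-fold, with a median log2 ratio of -0.05. At P7 alone, Nr4a2 and Lmx1a were higher by log2 ratios of 1.27 and 1.55, and by 0.82 and 0.84 between neuron-marked cells. The lower gene was Sox6, over 10 in 0 of 69 cells and in 27 of 543 comparison cells (4.97%). Between neuron-marked cells of E18.5 and P1, Foxa1 was higher past 2-fold (log2 ratios 1.15 and 1.00), and Sox6 lay below the mean level needed to be compared.

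Pitx3 and its reporter were seen in most but not all cells. Pitx3 was over 10 in 52, 60.6 and 36.4% of Gad2-high cells, against 78.3, 60.2 and 43.8% of comparison cells and 69.6% of the neuron-marked comparison cells of P7. The mean difference was -11.1 points (-22.7 to 1.79), and -20.9 points (-32.7 to -7.80) against comparison cells with 5 or more neuronal markers. The eGFP transcript was over 10 in 55 of 69, and either was over 10 in 57 (82.6%). Pitx3 was over 10 in 35 of 55 cells with eGFP over 10 and in 2 of 14 without it. The 12 Gad2-high cells with neither transcript over 10 had also been sorted through the GFP gate. By the study's account, the analysed cells were GFP-positive at sorting and the protein is stable where its mRNA is low. The study also removed sorted cells that clustered with cells lacking eGFP expression and high in Olig1. Which of these applies to the 12 was not tested.

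Factors that specify GABA neurons in the midbrain and elsewhere were seldom detected. Of 22 such genes (Gata3, Tal1, Lhx5 and others), 15 were over 10 in none of the 69 cells, a count not set against all entries. Summed over the 22, the median Gad2-high cell had 1.58 RPKM and the median comparison cell 3.23 RPKM, so they were low in both groups. Among the others, Gata3 and Zfpm1 were over 10 in 2 cells each and Tal1, Zfpm2 and Lhx5 in 1 cell each. Of the 8 with a mean level of at least 1 RPKM, 0 were higher and 0 lower past 2-fold, with a median log2 ratio of -1.27.

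Among 9 factors of Dat-low cells, Ebf2 and Ebf3 were higher past 2-fold. Ebf2 and Ebf3 encode early B cell factors, helix-loop-helix proteins of postmitotic neurons. Ebf3 was over 10 in 68, 57.6 and 54.5% of the Gad2-high cells against 16.1, 15.4 and 10.2%, with mean levels of 24, 20.7 and 16.4 RPKM against 4.59, 5.54 and 3.89 RPKM. Ebf2 was over 10 in 52, 45.5 and 45.5% against 10.6, 13 and 10.9%. The zinc finger gene Zfp536 was over 10 in 32 of 69 cells (46.4%) against 14.4% and was not past 2-fold at P1 (log2 ratio 0.76). Those 3 belong to a list of 9 factors of Dat-low cells, of which 2 (Ebf2, Ebf3) were higher and 0 lower past 2-fold.

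The markers given for these cells besides Gad2 differed in how many cells held them. Wnt7b, a secreted Wnt ligand, ran up to 423, 580 and 556 RPKM at E18.5, P1 and P7, with medians of 168.5, 105.5 and 46.6 RPKM. It was over 10 in 88, 78.8 and 63.6% of the cells against 13.7, 20.5 and 16.4%. Its mean level was 163.7, 170.7 and 133.4 RPKM against 11.3, 23.1 and 18.4 RPKM.
Cdh6, a cadherin of cell adhesion, was over 10 in 64, 54.5 and 45.5% against 21.1, 19.7 and 18.8%. Fst, which encodes the activin-binding protein follistatin, was over 10 in 15 of 69 cells (21.7%), namely in 16% of E18.5 cells, 33.3% of P1 cells and 0 of 11 P7 cells, which allows up to 27.3%. Its shares in the comparison cells were 5.59, 11.8 and 3.12%, a mean difference of 9.60 points (3.45 to 21.8) that was 3.67 points (-2.91 to 18.3) without the numbered P1 wells. Where present it was high, with a maximum of 1084 RPKM at E18.5 and 1360 RPKM at P1, and the highest comparison cell had 1057 RPKM. Of Wnt7b, Cdh6 and Fst, 6 cells had none over 10, 24 had 1, 32 had 2 and 7 had all 3. These genes were named with results of these cells known, so their direction is no independent evidence.

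Crhbp, encoding the binding protein that traps corticotropin-releasing hormone, was over 10 in 35 of 69 cells (50.7%) against 37 of 543 (6.81%). By stage it was over 10 in 60, 54.5 and 18.2% of the cells against 3.73, 6.30 and 11.7% of comparison cells, and against 18.8% of the neuron-marked comparison cells of P7. The difference in share at P7 was 6.46 points (-8.21 to 36.3), so the mean of 37 points over stages rested on E18.5 and P1 and was 52.3 points without P7. Its levels had maxima of 1039, 1081 and 250 RPKM. Plcl1, a phospholipase C-like protein, was over 10 in 56, 21.2 and 9.09% against 11.2, 7.48 and 1.56%, and was not past 2-fold at P7. Of 5 markers that the study chose on these cells for its Gad2 class, 4 (Slc32a1, Wnt7b, Ebf3, Crhbp) were past 2-fold. Its markers of the other classes were Car10 lower among 5 of the Nxph4 class, in 2 of the 69 cells, and Dlk1, Slc10a4, Zfhx3 and Grik3 lower among 6 of the Slc6a3 class. All 3 lists were drawn from these cells and are no independent evidence.

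Over all 15230 entries, the genes whose share of cells differed most at every stage were named by a fixed rule, the 20 higher with the largest and the 12 lower with the most negative smallest difference. Ndst3, a heparan sulfate sulfotransferase, came first: it was over 10 in 96, 90.9 and 81.8% of Gad2-high cells against 39.8, 37.4 and 20.3%, a mean difference of 57.1 points (44.3 to 63.2). Avpr1a, the V1a vasopressin receptor, was over 10 in 53 of 69, at 64, 84.8 and 81.8% against 23, 20.9 and 10.2%. Adarb2, a catalytically inactive member of the RNA-editing deaminases, was over 10 in 76, 81.8 and 81.8% against 36, 31.9 and 16.4%.

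Factors and guidance genes followed. The homeodomain gene Pbx3 was over 10 in 62 of 69 cells and the zinc finger gene Zeb2 in 45 of 69, the latter at 72, 63.6 and 54.5% against 10.6, 14.6 and 21.1%. Ntng1, encoding the axon guidance protein netrin-G1, was over 10 in 76, 60.6 and 45.5% against 19.3, 21.7 and 10.9%. Prdm8, a factor of the PR domain family, was over 10 in 25 of 69, at 36, 36.4 and 36.4% against 6.83, 4.33 and 0% (up to 2.34%). Fgf10, a secreted fibroblast growth factor, was over 10 in 30 of 69, and the receptor tyrosine kinase gene Kit in 76, 75.8 and 72.7% against 46.6, 43.3 and 25.8%. Gm14204, Wnt7b, Ebf2 and Ebf3 are also among the 20, as are B3gat1, Lin7a, Cacng3, Glce, Arhgap20, Phlda1 and the entry ENSMUSG00000069671, which has no symbol in the files. Among the 20, B3gat1, Kit and Phlda1 were not past 2-fold once comparison cells with fewer than 5 neuronal markers were left out.

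Of the 12 lower genes, Grik3, a kainate receptor subunit, was over 10 in 0, 3.03 and 0% of Gad2-high cells against 38.5, 27.6 and 21.1%, which is 1 cell of 69 (0 allows up to 12% at E18.5 and 27.3% at P7). Zfhx3, a large homeodomain factor, was over 10 in 5 of 69, at 8, 9.09 and 0% against 52.8, 30.7 and 18%. Dmrtb1, a DM-domain factor, stood at 16, 24.2 and 9.09% against 68.3, 47.6 and 31.2%.
Adamts2, a secreted metalloprotease, was over 10 in 2 of the 69. Tmem176b and S100a10 were over 10 in 12, 15.2 and 27.3% and in 12, 21.2 and 18.2%, against 65.2, 54.3 and 68.8% and 52.2, 39.8 and 47.7%. At P7 the gap narrowed for some of the 12 against neuron-marked comparison cells: Aldh1a1, at 27.3%, stood at 46.9% of all and 31.9% of the neuron-marked comparison cells, and with both sides neuron-marked it was 33.3 against 31.9%. Rida, at 9.09%, stood at 35.2 and 14.5%, and S100a10, at 18.2%, at 47.7 and 31.9%. For Dmrtb1, Grik3, Zfhx3 and Slc6a3 the gap was wider, against 53.6, 39.1, 33.3 and 63.8% of the neuron-marked comparison cells. Ctnna1, Klhdc8b, Uckl1, Rida, Slc6a3 and Aldh1a1 complete the 12, of which Tmem176b and Klhdc8b were not past 2-fold against the comparison cells with 5 or more neuronal markers.

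**Figure D2:**
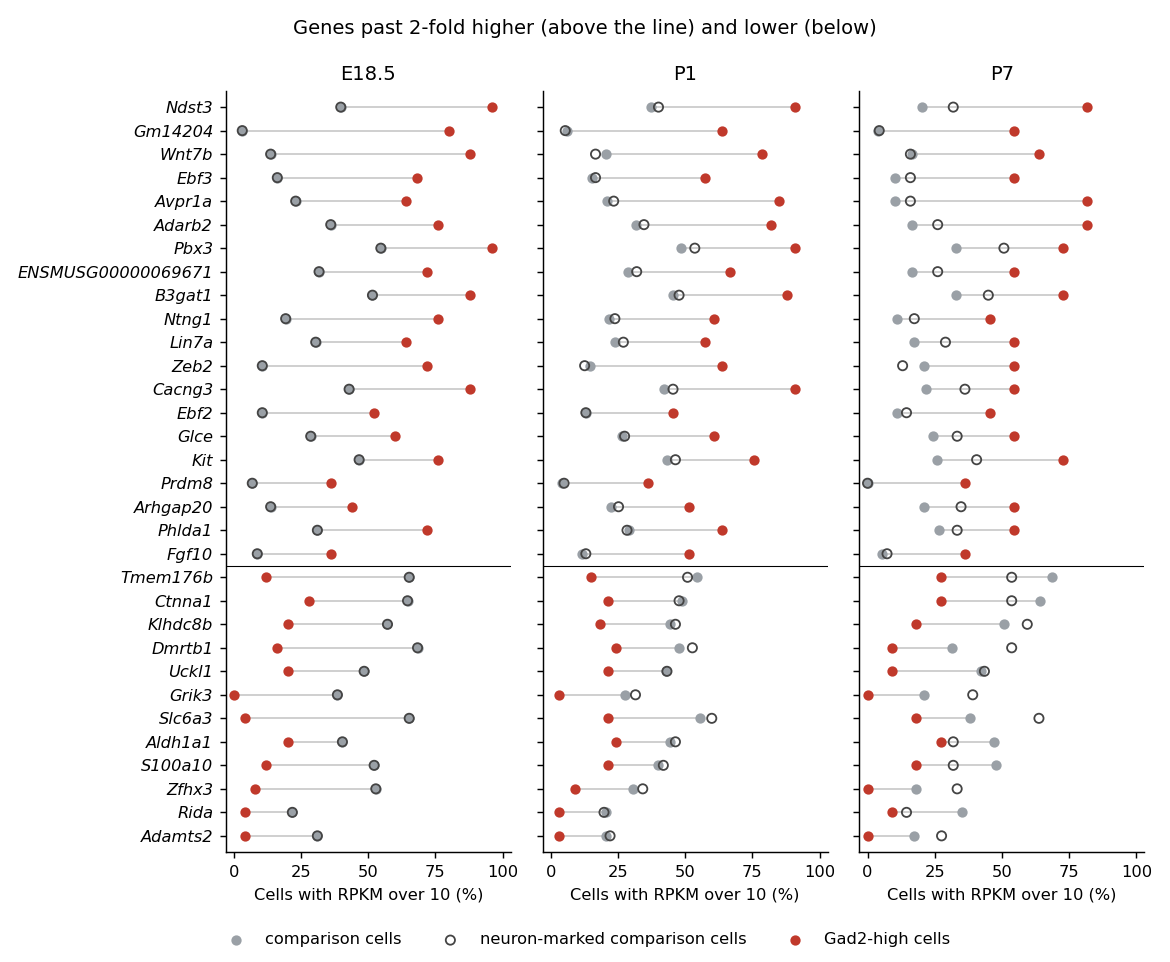
Share of cells over an RPKM of 10, in percent, by stage for the 20 higher and 12 lower genes of the rule, in Gad2-high cells (red), comparison cells (grey) and neuron-marked comparison cells (open circles). The genes were ranked on these differences, so the gap between red and grey is what chose them; Ndst3 reaches 96% of Gad2-high cells at E18.5 and Grik3 is over 10 in 1 of 69.

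Among the ligands and receptors of the Wnt pathway, the difference was carried by few members. Of 44 genes, 22 were over 10 in no Gad2-high cell, a count not set against all entries. Of the 27 compared, 2 were higher and 3 lower past 2-fold, with a median log2 ratio of -0.42. The higher ones were Wnt7b and Reck, a membrane protein that acts as its co-receptor, the latter over 10 in 13 of 69 cells (18.8%) against 8.29%. Between neuron-marked cells, where P7 had too few Gad2-high cells to be used, Reck missed 2-fold at P1 with a log2 ratio of 0.95. There Wnt5a, Wnt7b, Fzd9 and Sfrp2 were higher. Of the 21 genes compared there, 4 were higher and 3 lower, where 0.994 and 4.02% of all entries were. The lower ones were the ligand gene Wnt3, the receptor gene Fzd10 and the inhibitor gene Dkk2, over 10 in 3, 0 and 0 of the 69. Wnt5a, a ligand of the noncanonical branch, was over 10 in 64 of 69 (92.8%) against 55.8%, with log2 ratios of 0.93, 1.36 and 1.75, so it missed the rule at E18.5.

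Follistatin's partners and the other cadherins were mostly not past the limit. Of 25 genes of the activin and bone morphogenetic protein pathway, 0 were higher and 0 lower past 2-fold, and the activin receptor gene Acvr2a was over 10 in 53 of 69 cells (76.8%) and in 59.7% of comparison cells. Between neuron-marked cells of E18.5 and P1, Fst, Inhbb, Bmp7 and Nog were higher and Fstl5 lower past 2-fold, of 21 genes compared. There 0.994% of all entries were higher and 4.02% lower. Of 15 cadherins, Cdh6 was higher, and Cdh23 lower at 0 of 69 cells against 38 of 543. Cdh18 and Cdh22 were lower as well between neuron-marked cells of E18.5 and P1.

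Genes for receptors and synapses held several differences. Of 28 glutamate receptor genes, 3 were higher (the AMPA subunit Gria3 in 73.9% of cells against 41.4%, the kainate subunit Grik1 in 47.8% against 17.5%, and Cacng3, an AMPA receptor auxiliary subunit, in 58 of 69) and 1 was lower (Grik3). The 2 kainate subunits thus differed in opposite directions. Of 17 GABA receptor genes, 0 were past 2-fold in either direction. Slc12a5, the chloride exporter KCC2, was over 10 in 56 of the 69.

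Of 28 synapse organisers, 4 were higher and 2 lower past 2-fold. The higher ones were Cbln2 (37.7% of cells against 13.3%) and C1ql3 (27.5 against 3.31%), which encode secreted C1q-family proteins, Ntng1 and Lrrn3, a leucine-rich repeat protein found in 66 of 69. The lower ones were C1ql2 and Lrrtm4, in 1 and 4 of the 69. Between neuron-marked cells of E18.5 and P1, Lrrn3 narrowly missed 2-fold at P1 (log2 ratio 0.99) and Lrrtm4 missed it at E18.5 (-0.92). Of the 27 compared there, 5 were higher and 5 lower, where 0.994 and 4.02% of all entries were. Nrxn3 and Lrrn1 were added to the higher and Cbln4, C1ql1, Nxph2 and Ntng2 to the lower ones. Cbln1, cerebellin-1, was over 10 in 37 of 69 (53.6%) against 13.3% and missed the rule at P1 with a log2 ratio of 0.69.

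Of 27 receptors for neuromodulators, 4 were higher past 2-fold: Avpr1a, the serotonin receptor genes Htr1a (31.9% of cells against 8.84%) and Htr2c, and the muscarinic receptor gene Chrm2 (33.3 against 5.52%). Htr2c was over 10 in 8, 30.3 and 54.5% of the cells at E18.5, P1 and P7, against 2.48, 5.91 and 4.69%. Lower were Oxtr, the oxytocin receptor, and Oprk1, the kappa opioid receptor, in 2 and 1 of the 69. Oprk1 was over 10 in 18.6% of comparison cells. The 18 neuropeptide and calcium-binding genes held 1 higher (Crhbp) and 2 lower (Vip, Calb1), with Vip over 10 in 7 of 69 at mean levels of 1.41, 3.12 and 6.56 RPKM against 204.5, 349.1 and 1184 RPKM.

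Of the genes compared of the neuronal (10), oligodendrocyte (4), astrocyte (7), microglial and vascular (8), proliferation (5) and immature neuron (9) lists, 0 were higher and 0 lower past 2-fold. Between neuron-marked cells of E18.5 and P1, Syt1, Mag, Slc1a2 and Aldoc of these lists were lower. Of 6 proliferation genes, 5 or more were over 10 in 1 Gad2-high cell, of E18.5, and in 10 comparison cells, none of them of E18.5. The immediate early genes held 1 lower of 10, Ier2, and 5 or more of them were over 10 in 0 Gad2-high cells and in 63 comparison cells (1, 20 and 42 by stage). Such genes respond to handling, and their part in the results was not tested.

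The Gad2-high cells were set against the other classes that the same levels define: 75 Nxph4-high cells (Nxph4 over 150) and the Slc6a3-high cells (Slc6a3 over 150, Gad2 and Nxph4 not), which made up 31.9% of the 695. The 75 include the 7 cells over 150 for both Gad2 and Nxph4. Slc32a1 was over 10 in 27.5% of the Gad2-high, 0% (exact interval up to 4.80%) of the Nxph4-high and 1.80% of the Slc6a3-high cells. Slc17a6 was shared with the Nxph4-high class, at 89.9 and 96%, a mean difference of -7.23 points whose interval (-19.9 to 5.35) spans 0. It exceeded the Slc6a3-high class (41.9%) by 45.7 points (31.4 to 54.4).

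Th lay between the other classes, at 62.3% of Gad2-high, 30.7% of Nxph4-high and 98.6% of Slc6a3-high cells, with differences of 25.3 points (8 to 40) and -38.4 points (-50.5 to -26.5). En1, a homeodomain factor of the midbrain, showed the same order at 72.5, 36 and 89.6%. Pitx3 stood at 53.6, 48 and 90.1%, and the first 2 differed by -0.87 points (-16.5 to 15.7) as a mean over stages. Nr4a2 was over 10 in 97.1, 96 and 97.3%.

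Several genes were held by the Gad2-high class far more often than by both others. Wnt7b was over 10 in 79.7, 22.7 and 21.6%, Crhbp in 50.7, 2.67 and 7.66%, Avpr1a in 76.8, 20 and 21.2%, and Gm14204 in 68.1, 4 and 4.95%. Adarb2 separated it from the Nxph4-high class by 77.6 points (61 to 84.6), with shares of 79.7 and 4%, and less from the Slc6a3-high class at 48.6%. Ebf2 did the reverse: at 47.8% it exceeded the Slc6a3-high class (3.60%) by 43.8 points and the Nxph4-high class (34.7%) by 11.3 points, an interval of -5.65 to 26.9. C1ql1, a C1q-like secreted protein, was the marker of the other class, in 13% of Gad2-high and 65.3% of Nxph4-high cells.

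Among themselves the 69 cells varied most, after stage means were taken out, in Gm24157 (over 10 in 41 cells, SD 3.85 on the log2(RPKM + 1) scale) and Crhbp (SD 3.73). The first 15 entries also held Cdh6 (SD 3.51), the neuropeptide gene Cck (36 cells), the nicotinic receptor subunits Chrnb3 (47) and Chrna6 (54), Lmo4, Arhgap20, Sparc, Vim, Vps16, 1110015O18Rik, Gm10337, Exosc9 and ENSMUSG00000091271. The noncoding RNA gene 1110015O18Rik was over 10 in 26 of the 69 (37.7%) and in 8.29% of comparison cells.

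Markers went together to different degrees over these cells. Cells of the 3 stages were pooled for this, and a few of many pairs are given, with no adjustment for their number. Crhbp, Wnt7b and Fst were each found in the smallest share of cells at P7, and the part of stage in these pairs was not tested. Slc32a1 was over 10 in 15 of 35 cells with Crhbp over 10 (42.9%) and in 4 of 34 without (11.8%), a difference of 31.1 points (10.1 to 48.9). Wnt7b was over 10 in 34 of 35 against 21 of 34, and Fst in 13 of 35 against 2 of 34. Ebf3 was over 10 in 38 of 55 cells with Wnt7b over 10 and in 4 of 14 without. Cdh6 differed from these, being over 10 in 20 of 35 cells with Crhbp and 19 of 34 without, a difference of 1.26 points (-21 to 23.4).

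The study distinguishes clusters of its Gad2 class by Th, which it annotated by hand. Here single cells were divided instead, at the limit of 150 RPKM used for Gad2, and 27 of the 69 (39.1%) were Th-high, of which 8, 15 and 4 came from E18.5, P1 and P7. These 27 were set against the remaining 42. Their median reads per stage were 1174610, 1610150 and 1833780, against 1318680, 1607060 and 1995900. Adcyap1, the neuropeptide PACAP, was over 10 in 21 of 27 and 6 of 42 (77.8 and 14.3%), a difference of 63.5 points (40.5 to 77.4). The nuclear factor gene Nfix differed by 50.3 points (26.4 to 66.7), Cck by 36 (11.9 to 54.3) and Chrna6, over 10 in all 27 and in 27 of 42, by 35.7 (17.9 to 50.8). Drd2, the D2 dopamine receptor, was over 10 in 7 of 27 and 2 of 42, and Otx2, a homeodomain factor of the ventral tegmental area, in 13 and 10. The eGFP transcript was over 10 in 26 of 27 and 29 of 42, a difference of 27.2 points (8.44 to 42.6).

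Other genes were found in a larger share of the remaining 42 cells. Slc32a1 was over 10 in 3 of 27 Th-high cells and 16 of 42 others (11.1 and 38.1%), a difference of -27 points (-43.7 to -5.57). Crhbp was over 10 in 9 and 26 (33.3 and 61.9%), the inhibitor of differentiation gene Id2 in 2 and 17, the GABA transporter gene Slc6a11 in 4 and 17 and Wnt7b in 18 and 37. The peptide genes Sst and Pdyn were each over 10 in 0 of 27 and 6 of 42, and Nts in 0 and 5, with intervals of the difference that spanned 0 for all 3.

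For other genes the interval of the difference in share spanned 0. Ddc differed by 1.59 points (-19.6 to 20.3) and Pitx3 by 15.3 points (-8.44 to 36.4), though their levels were higher in the Th-high cells, with means of 423.6 against 135.8 RPKM for Ddc and 112.2 against 53.8 RPKM for Pitx3. Slc17a6 and Ebf3 differed by 10.6 and -8.73 points. Over the 65 listed genes compared, the interval lay above 0 for 10 and below 0 for 6, with no adjustment for their number.

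**Figure D3:**
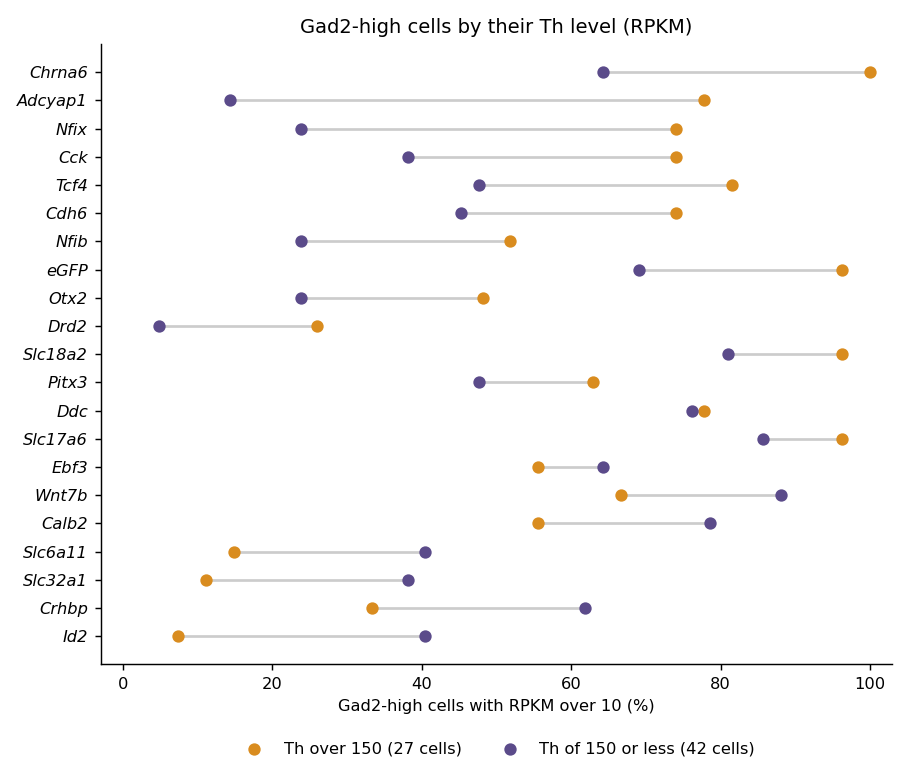
Share of cells over an RPKM of 10, in percent, for 21 genes in the 27 Gad2-high cells with Th over 150 and the other 42. Adcyap1, Nfix, Cck and Chrna6 lie higher in the Th-high cells, Slc32a1, Crhbp, Id2 and Wnt7b lower, and Ddc at about the same share of cells, though at a higher mean level in the Th-high cells.

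The same rule was applied to heterozygous cells of other stages and to homozygous cells, which had no part in the choice. It found 12 heterozygous cells at E13.5 (8.57% of those over the read limit), 10 at E15.5 (7.09%), 60 at P90 (18.5%, 14.4 to 23.1%) and 32 homozygous Pitx3eGFP/eGFP cells at P1 (17.1%, 12 to 23.3%), which have no working Pitx3 copy. Among homozygous cells of E13.5, a group added after the values were seen, it found 7 cells (3.76%, 1.53 to 7.60%), described separately here because they were fewer than 10. Of the 20 higher genes, 10, 15, 14 and 16 were past 2-fold in the first 4 groups, each against its own comparison cells, where 9.46, 8.10, 2.27 and 4.92% of all entries were. In the same order, 12, 19, 20 and 20 of the 20 had a positive log2 ratio. Of the 12 lower genes, 10, 8, 9 and 9 were past 2-fold, where 20.8, 27.4, 4.86 and 14.5% of all entries were. In the 7 homozygous cells of E13.5, 3 of the 20 higher genes were past 2-fold, where 9.30% of all entries were, and 9 had a positive log2 ratio, while 9 of the 12 lower genes were past 2-fold, where 27% of all entries were. Dissociation differed by age: by the study's methods 1 kit was used for embryos, another at P1 and P7, and papain at P90, while the labels give the first kit for embryonic and early postnatal tissue alike. Age and dissociation cannot be told apart between groups that had different kits.

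Wnt7b, Ebf3 and Gm14204 were over 10 in most Gad2-high cells of each of the first 4 groups: Wnt7b in 91.7, 70, 80 and 78.1%, Ebf3 in 91.7, 80, 76.7 and 75% and Gm14204 in 91.7, 100, 83.3 and 78.1% at E13.5, E15.5, P90 and in homozygous P1 cells. By the study's account, Ebf3 was broad at E13.5 and E15.5 and enriched in Dat-low cells later, so a high share at those 2 stages does not by itself set these cells apart. Crhbp was over 10 in 50, 40, 85 and 75% of the Gad2-high cells of the 4 groups. Gad1 was over 10 in 2 of the 12 cells of E13.5 and in 0 cells of the other 3, which allows up to 30% at E15.5, 5% at P90 and 9.38% in the homozygous cells. Slc32a1 stood at 33.3, 20, 61.7 and 46.9%, and Slc6a3 at 0 (up to 25%), 0 (up to 30%), 23.3 and 9.38%. Slc17a6 stood at 33.3, 60, 95 and 71.9%, against 53.1, 48.1, 87.9 and 66.9% of the comparison cells, and the interval of the difference spanned 0 in each of these groups. In the 7 homozygous cells of E13.5, Wnt7b and Gm14204 were each over 10 in 6 cells, Ebf3, Gad1 and Slc17a6 each in 3 and Crhbp in 1. Ebf3 was over 10 in 72.6% of the comparison cells of that group. Fst was absent over 10 from the 12 cells of E13.5 (up to 25%) and the 10 of E15.5 (up to 30%), and was found in 13.3% at P90 and 43.8% of homozygous P1 cells, where 22.1% of the comparison cells had it, a difference of 21.7 points (4.42 to 39.6).

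**Figure D4:**
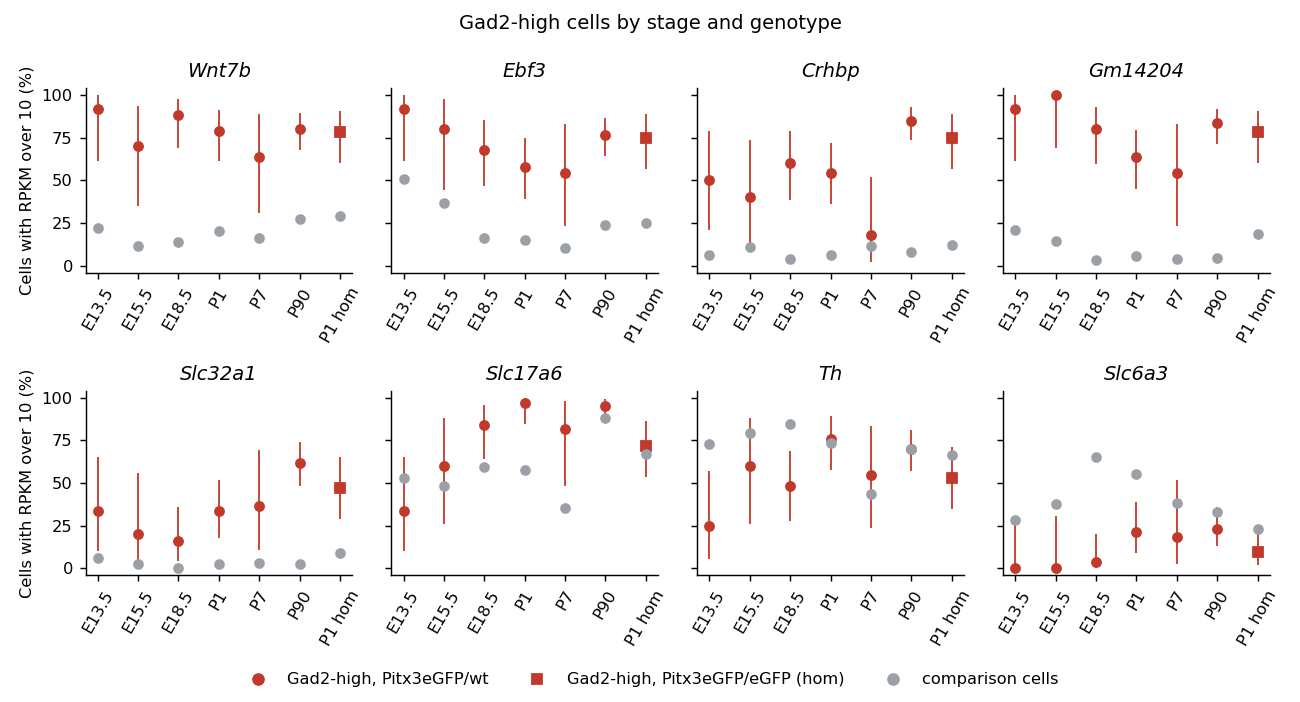
Share of Gad2-high cells (red, with exact binomial 95% intervals) and of their comparison cells (grey) over an RPKM of 10, in percent, for 8 genes in heterozygous cells from E13.5 to P90, with homozygous P1 cells as squares. Homozygous E13.5 cells are not drawn. Wnt7b, Ebf3 and Gm14204 lie above the comparison cells in each group drawn, Slc17a6 is lowest at E13.5 and Slc6a3 lies below the comparison cells in every group drawn.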

How the data were processed

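Single GFP-positive cells of dissected ventral midbrain were measured by Smart-seq2, 1 library per cell. The authors aligned reads with STAR to mm10, to which eGFP and ERCC sequences had been added, kept unique reads, and deposited per cell a whole-number read count and an RPKM value for each Ensembl gene, made with rpkmforgenes. The deposited RPKM values were used as given, and the counts served for depth and for thinning to 100000 reads. Of 39468 entries per cell, those without a gene symbol took 0.211% of reads. No cells were identical. Sequencing depth per cell ran from 144240 to 6394627 reads in the comparison cells.

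Shares are of cells over an RPKM of 10 (detected) or 150 (high). Exact Clopper-Pearson intervals, Newcombe intervals for differences within a stage and their equal-weight mean over stages with at least 10 Gad2-high cells were used. Log2 ratios were of mean RPKM plus a pseudocount of 1, for entries with a mean of at least 1. Gad2 and Nxph4 were left out of ratios. A share of 0 allows up to 3 cells, which is 4.35% of the 69 Gad2-high cells, and by stage 12% (E18.5), 9.09% (P1) or 27.3% (P7). No animal is named in the labels, so no p-value was computed. Named genes were those of the lists past 2-fold, the 20 higher and 12 lower by smallest difference in share, 21 genes fixed by name and the 15 most variable. Some further members of the lists were named without meeting that rule. The members, markers and lists were chosen with earlier results of these data known. Oligodendrocyte-marked cells were left out of the comparison cells. Doublets were not removed, beyond the study's sorting of single cells. Scripts were tested on simulated data. Python 3.11.15, numpy 2.4.6, pandas 2.3.3 and scipy 1.17.1 were used. A few listed genes are not reported here.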

Additional observations from a re-analysis of the deposited data

How the results depend on the processing

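Alternatives were run for the share differences of 11 genes (Slc32a1, Gad1, Slc17a6, Th, Slc6a3, Pitx3, Wnt7b, Fst, Cdh6, Ebf3, Crhbp), and not for those of other genes or of the Th-high cells. None of these 11 whose interval excluded 0 turned its direction, while that of Th, whose interval spans 0, was 2.70 points at an RPKM limit of 1. Of the values, 22 main ones and 7 others moved beyond their interval or, for counts, by more than 1.5 times. With Gad2 over 300 in place of 150 the share at P1 was 6.58%, and 48 cells remained in all. The Slc32a1 difference was 64.2 points at an RPKM limit of 1 and 4.79 points at 50, and 47 cells held both Slc32a1 and Slc17a6 over 1. Against comparison cells with 5 or more neuronal markers, an alternative chosen after seeing the data, the Th difference was -20.6 points (-33.2 to -8.86) and that of Slc6a3 -48.2 points, and with both sides limited to neuron-marked cells, which also drops P7, the latter was -49.7 points. It was -47.4 points without the numbered P1 wells and -47.8 points without the P7 wells. The shares of tested entries called higher and lower were 0.171 and 0.131% (26 and 20 entries) with a pseudocount of 10, 0.399 and 0.884% (33 and 73 entries) with a minimum mean of 10, and 1.55 and 0.322% on median RPKM, so that higher entries outnumbered lower ones in the first and last of these. They were 0.897 and 3.66% without P7, 1.01 and 4.69% with Gad2 over 300, and 0.994 and 4.02% in neuron-marked cells. These last 3 settings leave P7 out, either as such or because fewer than 10 Gad2-high cells remained there, so an entry had to pass at 2 stages. A pseudocount of 0.1 gave 4.99% lower. Of the higher and lower calls, 35.7 and 1.22% were kept on median RPKM, 31 and 6.10% with a pseudocount of 10, 39.3 and 22.3% with a minimum mean of 10, 73.8 and 82.3% against comparison cells with 5 or more neuronal markers, and 85.7 and 88.1% between neuron-marked cells. No paired analysis was possible because no animal is named and no test was made. The 11 cells of P7 limit every share of that stage.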

Other observations

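Both sexes were seen among the Gad2-high cells from Xist and Y-linked transcripts, which the rule did not use. At E18.5, 12 cells held Xist alone and 8 held Y-linked genes alone, with 4 cells holding neither and 1 both. At P1 these were 4 and 20, with 9 cells holding neither, and at P7 0 and 9, with 2 holding neither. Among the comparison cells Xist alone was held by 45.3, 15 and 6.25% and Y-linked genes alone by 37.3, 54.3 and 61.7%, so the make-up by sex differed between the stages in both groups. Its part in any difference between stages was not tested.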
